A study of Saccharomyces cerevisiae with 17 samples.

Results

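The 10 genes described here belong to zinc homeostasis in budding yeast: genes of zinc uptake, storage and regulation, a family known to answer to zinc, and a dehydrogenase gene switched on when zinc is short. They were chosen by name: the 4 IZH genes IZH1 (YDR492W), IZH2 (YOL002C), IZH3 (YLR023C) and IZH4 (YOL101C), the transporter genes ZRT1 (YGL255W), ZRT2 (YLR130C), ZRT3 (YKL175W) and ZRC1 (YMR243C), the regulator ZAP1 (YJL056C), and ADH4 (YGL256W). They are 10 of the 5449 Saccharomyces cerevisiae genes tested on these arrays. Each has a single probe set under its own name, and the mean of each lay above the background level of 4.56 log2, so none was lost to a filter. The genes were proposed with results of the same arrays in view, so their levels are given as a description, and the tests below are not independent evidence for the choice.

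Messenger RNA was measured on 17 Affymetrix Yeast Genome 2.0 arrays, hybridised with labelled RNA from haploid laboratory yeast of the BY4742 background. The strains were BY4742 WT (wild type), BY4742 FLO1 overexpression, which carries raised levels of a flocculin, a cell wall protein that binds cells into flocs, and BY4742::FLO8, labelled for a transcription factor of adhesion and filamentous growth genes. The labels do not give the promoter behind the FLO1 overexpression or say how FLO8 was introduced, nor whether a strain is a single clone. Each strain was grown for 72 h at 23 °C in rich YPD medium, either aboard the International Space Station, where medium was added to cells in saline on day 5 after launch, or in a later ground run in an incubator that followed the logged temperatures. There were 3 arrays per group, and 2 for the FLO1 strain in flight. Because the ground run came after the flight, spaceflight and batch cannot be told apart. The labels do not say that replicates came from separate cultures, so p-values measure the spread between arrays, which may be technical. All values are log2 levels of RNA extracted from whole cultures, in which fewer cells expressing a gene and less of its RNA per cell cannot be told apart.

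Zinc is a structural or catalytic part of many yeast proteins, and its uptake is set by the transcription factor Zap1, which is active when the cell lacks zinc. Under zinc shortage Zap1 switches on ZRT1, the high-affinity importer of the plasma membrane, ZRT3, which returns zinc from the vacuole, ADH4, an alcohol dehydrogenase, and its own gene ZAP1. It also acts on ZRT2, the low-affinity importer, and on ZRC1, which loads zinc into the vacuole. The IZH genes encode membrane proteins of the PAQR family, related to the adiponectin and progestin receptors of animals. IZH genes are known to answer to zinc, and some of them also to fatty acids and to Mga2, a membrane-bound regulator of lipid and low-oxygen genes. IZH2 is known as the receptor through which yeast responds to osmotin, a plant defence protein.

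The strain labels were checked first. On the ground FLO1 read 12.70 ± 0.19 log2 (SD, n = 3) in the FLO1 strain and 8.47 ± 0.27 in wild type, and FLO11, a flocculin known as a Flo8 target, read 12.17 ± 0.81 in the FLO8 strain and 8.57 ± 0.10 in wild type. FLO9, a close relative of FLO1 whose probes can share its signal, read 12.92 ± 0.10 in the FLO1 strain. The FLO8 probe set was lower in the FLO8 strain (7.58 to 8.31 over its 6 arrays) than on all other arrays (8.85 to 9.51), so it gives no sign of raised FLO8. BY4742 is a strain of mating type alpha; levels of different probe sets are not compared here, so the markers of the mating types give no check of it. Of the 7 a-cell markers 1, AGA2, was called in the average flight comparison, which called 4.31% of all genes. It was lower in flight, at −0.87 log2 (SE 0.18, limma adjusted p = 0.0224), and −0.91 without the 4 arrays that stand apart, named next. The part of AGA2 in the results below was not tested. The flight arrays were more uneven: their root mean square distance from their group mean was 0.263 to 0.583 log2 over all genes, against 0.0966 to 0.339 on the ground. The 4 arrays with the lowest mean correlation with the other arrays were all from flight: wild type replicate 3, FLO1 replicate 1, and FLO8 replicates 2 and 3. The average flight difference of each of the 10 genes is given with and without them.

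IZH2 was the member whose group means differed most, by 2.48 log2, from 9.35 ± 0.07 (SD, n = 3) in the FLO1 strain on the ground to 11.83 ± 0.93 (n = 2) in the same strain in flight. In wild type its ground arrays read 9.98, 9.59 and 9.15, and its flight arrays 10.40, 9.11 and 11.71. The FLO1 strain had ground arrays at 9.28, 9.35 and 9.42, and flight arrays at 12.49 and 11.17. In the FLO8 strain the ground arrays read 9.85, 9.45 and 9.49, and the flight arrays 9.40, 11.42 and 11.63. Thus 5 of the 8 flight arrays lay above 11, while no ground array reached 10, and in wild type and the FLO8 strain 1 flight array lay below all 3 ground arrays. Flight and ground overlapped in those strains and were separate in the FLO1 strain.

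IZH4 followed nearly the same course. Its ground arrays read 10.97, 10.57 and 10.08 in wild type, where the flight arrays read 11.35, 9.78 and 12.27. The FLO1 strain read 10.05, 10.30 and 10.45 on the ground and 13.20 and 11.73 in flight. In the FLO8 strain it read 10.58, 10.47 and 10.08 on the ground and 9.65, 12.14 and 11.84 in flight. The same flight arrays were high and low as for IZH2, and the root mean square difference between the centred profiles of the 2 genes was 0.24 log2 over 17 arrays.

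IZH1 was high on fewer arrays. It read 10.92, 10.65 and 10.27 in wild type on the ground and 10.71, 9.86 and 11.77 in flight. The FLO1 strain read 10.06, 9.96 and 10.14 on the ground and 12.64 and 10.36 in flight, and in the FLO8 strain 10.63, 10.51 and 10.34 on the ground and 10.43, 12.07 and 10.39 in flight. FLO8 flight replicate 3, where IZH2 and IZH4 were high, had IZH1 within the range of its ground arrays. IZH3, whose product belongs to the same family, varied least of the 4: its group means ran from 11.23 ± 0.12 (n = 3, FLO1 ground) to 11.90 ± 0.22 (n = 2, FLO1 flight). Its levels in wild type were 11.58, 11.67 and 11.45 on the ground and 11.77, 11.53 and 12.31 in flight. They were 11.34, 11.11 and 11.25 on the ground and 12.06 and 11.74 in flight in the FLO1 strain, and in the FLO8 strain 11.36, 11.46 and 10.89 on the ground and 11.72, 11.76 and 10.89 in flight.

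**Figure D1:**
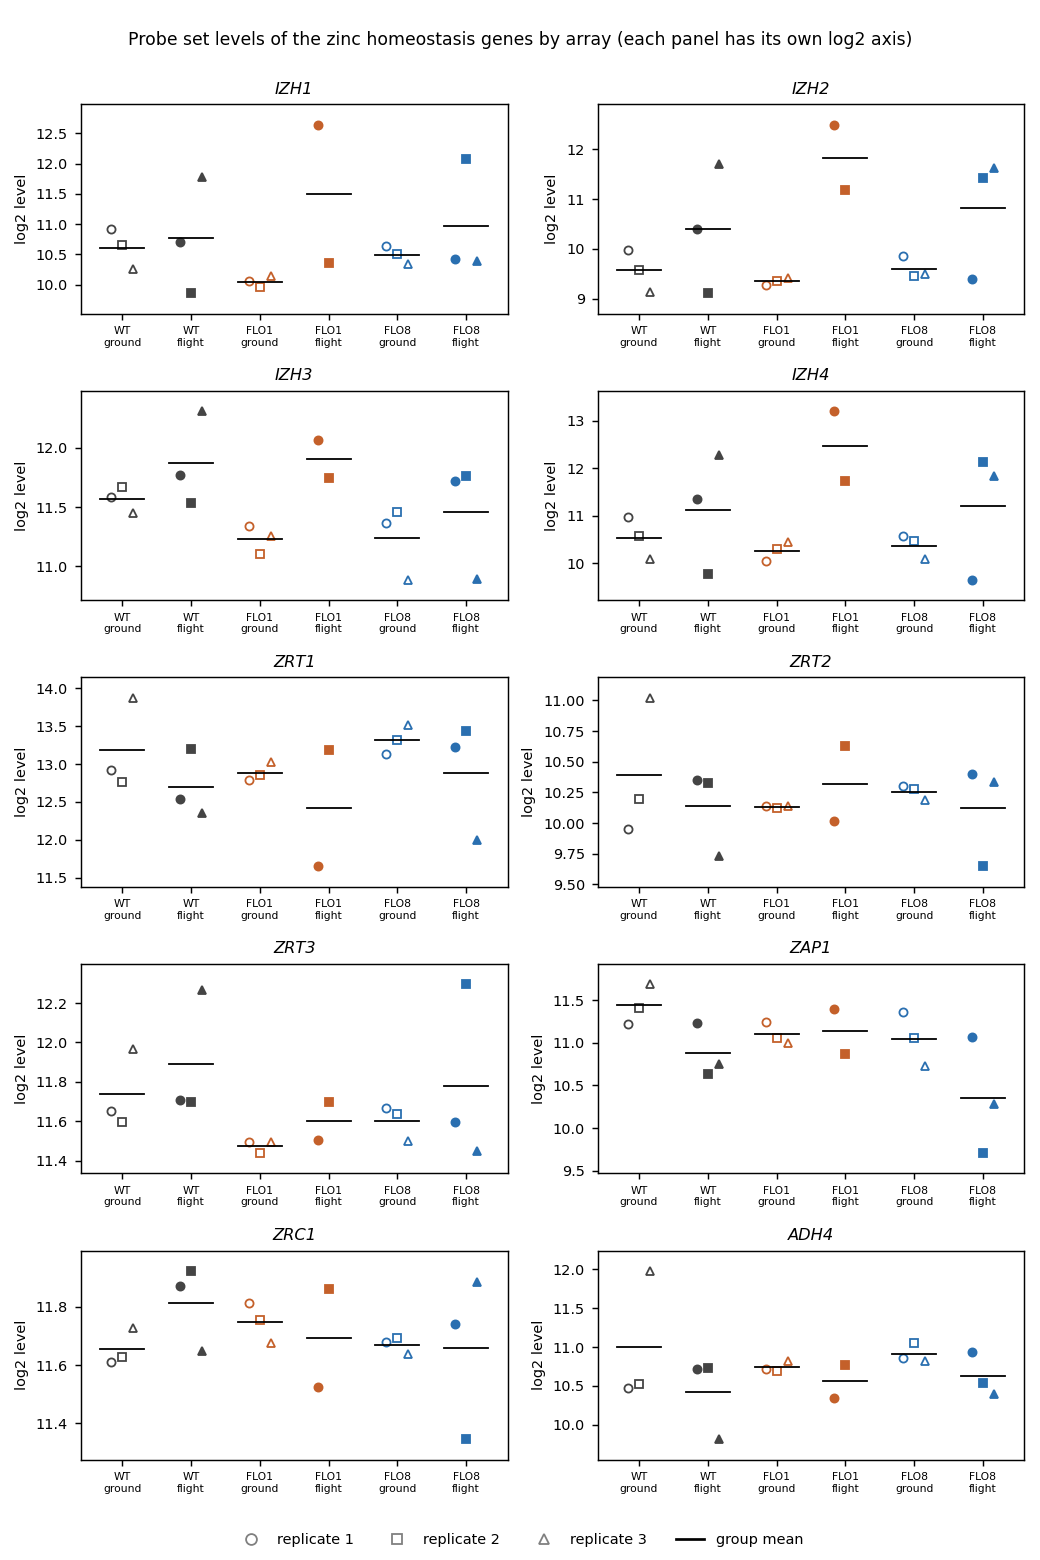
Log2 probe set level of each of the 10 genes (y axis, a separate range in every panel) on each array of the 6 groups (x axis); open symbols are ground and filled symbols flight arrays, symbol shape gives the replicate number and the bar the group mean. For IZH2 the ground arrays sit between 9.15 and 9.98, while the flight arrays spread from 9.11 to 12.49.

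Whether growth in flight changed these genes was tested with limma, which fitted a mean per group to all 17 arrays, with Benjamini-Hochberg adjustment over the 5449 genes. Averaged over the 3 strains, IZH2 was 2.85-fold higher in flight (log2 difference 1.51, SE 0.37, adjusted p = 0.0373 by limma). It was the single member of the 10 called at an adjusted p under 0.05, where 4.31% of all genes were called. IZH4 came next at 1.21 (SE 0.38, adjusted p = 0.0884), then IZH1 at 0.69 (SE 0.34, adjusted p = 0.251) and IZH3 at 0.40 (SE 0.15, adjusted p = 0.135). Of the 10 genes 6 lay above 0 and 4 below, with a median of 0.09 log2 beside 0.03 over all genes. At an unadjusted p under 0.05 stood 4 of the 10, against 21.7% of all genes. These were IZH2, IZH4 and IZH3, higher in flight, and ZAP1, lower in flight, while IZH1 was not among them.

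The call on IZH2 was lost in most repeats. It was made in 10 of 24 alternative fits, whose estimates ran from 0.60 to 1.76 and whose adjusted p ran from 0.0165 to 0.573. Without the 4 arrays that stood apart the IZH2 estimate was 0.60 (adjusted p = 0.0876), that of IZH4 was 0.25 and that of IZH3 0.36, while IZH1 turned to −0.03. Leaving out FLO1 flight replicate 1, the highest array for IZH1, IZH2 and IZH4, gave 1.29 (adjusted p = 0.101) for IZH2. With FLO1 flight replicate 2 left out instead, which leaves replicate 1 alone in that group, IZH2 read 1.73, IZH4 1.46 and IZH1 1.07. IZH4 was called beside IZH2 without FLO8 flight replicate 1, in a fit that called 225 of the 5449 genes. IZH3 was called beside IZH2 without FLO8 flight replicate 3, at 0.49 (limma adjusted p = 0.0356), among 352 genes called. The call on IZH2 was also lost when any single ground array of the FLO1 or FLO8 strain, wild type ground replicate 1 or 2, or wild type flight replicate 1 was left out, with an adjusted p of 0.0532 to 0.0804. A measure of RNA quality, the 3 prime minus 5 prime difference of 7 control genes, was 1.26 and 1.41 log2 in the FLO1 flight arrays against 1.02 to 1.15 in that strain on the ground. It was 1.16 to 1.21 in wild type flight against 1.04 to 1.14 on the ground, and overlapped in the FLO8 strain (1.15 to 1.26 against 1.07 to 1.19). With this measure as a covariate the IZH2 estimate was 1.76 (adjusted p = 0.573), and its part in the result was otherwise not tested.

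Within single strains no member was called. In wild type the flight differences were 0.83 log2 (SE 0.61) for IZH2, 0.59 (SE 0.64) for IZH4, 0.30 (SE 0.25) for IZH3 and 0.17 (SE 0.56) for IZH1. The limma adjusted p of the 10 members ran from 0.571 to 0.964, in a comparison that called 0.147% of all genes, and 0 of the 10 had an unadjusted p under 0.05, against 10% of all genes. Without wild type flight replicate 3, the estimates of IZH2, IZH4 and IZH1 were 0.18, 0.02 and −0.33, so that array set most of their size. All 10 members overlapped between flight and ground in wild type, where 10.5% of all genes had every flight array above the ground arrays and 5.51% had every one below.

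In the FLO1 strain IZH2 was 5.58-fold higher in flight (log2 difference 2.48, SE 0.68, limma adjusted p = 0.179) and IZH4 4.59-fold (2.20, SE 0.72, adjusted p = 0.231). IZH1 differed by 1.45 (SE 0.63, adjusted p = 0.346) and IZH3 by 0.67 (SE 0.28, adjusted p = 0.312). No member passed the adjusted threshold, which 0.0367% of all genes did, and 4 of 10, the IZH genes, had an unadjusted p under 0.05, against 13.1% of all genes. In 5 of 10 members, IZH1 to IZH4 and ZRT3, both flight arrays lay above all 3 ground arrays, as they did in 22.9% of all genes. No member had both below, as 18.5% of all genes did. The flight arrays differed from each other: with replicate 1 left out the differences were 1.82 for IZH2, 1.46 for IZH4, 0.51 for IZH3 and 0.30 for IZH1. With replicate 2 left out they were 2.59 for IZH1 and 3.14 for IZH2. The lone flight array was then taken to have the spread of the other groups.

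In the FLO8 strain the differences were 1.21 log2 (SE 0.61) for IZH2, 0.84 (SE 0.64) for IZH4, 0.47 (SE 0.56) for IZH1 and 0.22 (SE 0.25) for IZH3. None was called, the limma adjusted p of the 10 members being 0.744 to 0.990, and this comparison called 0 of the 5449 genes, of which 357 (6.55%) had an unadjusted p under 0.05. The member with an unadjusted p under 0.05 was ZAP1. Without the 4 arrays that stood apart, which leaves this strain with flight replicate 1 alone, IZH2 read −0.20, IZH4 −0.72, IZH1 −0.07 and ZAP1 0.02, so their direction turned, and IZH3 read 0.48. All 10 members overlapped between flight and ground, where 6.57% of all genes lay wholly higher and 4.39% wholly lower in flight.

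The IZH genes lay above 0 in all 3 strains in the fit to all arrays, also after median centring and after quantile normalization of the arrays. Whether the strains differed in their flight response was tested as an interaction. The response of the FLO1 strain minus that of wild type was 1.65 log2 (SE 0.91) for IZH2, 1.61 (SE 0.96) for IZH4 and 1.28 (SE 0.84) for IZH1, each with a limma adjusted p of 0.994. No gene was called in this test, and 191 (3.51%) had an unadjusted p under 0.05, none of them a member. For the FLO8 strain minus wild type the members ran from −0.17 (ZRC1) to 0.38 (IZH2), all at an adjusted p of 0.998, where 0 genes were called and 161 (2.95%) had an unadjusted p under 0.05. A larger response of the IZH genes in the FLO1 strain was therefore not detectable with these arrays. These contrasts share the wild type arrays.

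**Figure D2:**
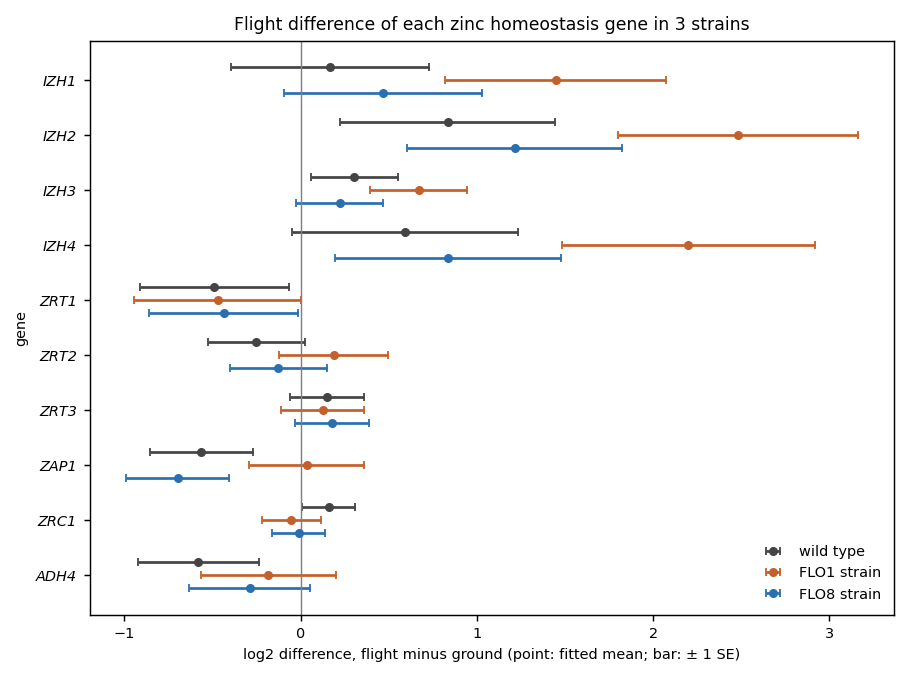
Log2 difference between flight and ground (x axis) for each gene (y axis) in the 3 strains, as the fitted value with bars of ± 1 SE. The points of IZH2 and IZH4 in the FLO1 strain, at 2.48 and 2.20, lie farthest to the right, and those of ZRT1 lie at −0.49 to −0.44 in the 3 strains.

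The plasma membrane importers did not pass the test in any flight comparison. ZRT1 had group means of 12.42 to 13.32. In wild type it read 12.93, 12.77 and 13.87 on the ground and 12.54, 13.20 and 12.35 in flight. In the FLO1 strain it read 12.78, 12.85 and 13.03 on the ground and 11.65 and 13.18 in flight, and in the FLO8 strain 13.13, 13.32 and 13.51 on the ground and 13.23, 13.43 and 11.99 in flight. Low readings came from FLO1 flight replicate 1 and FLO8 flight replicate 3, while the other flight arrays of those strains lay at or near the ground range. The flight differences were −0.49 (SE 0.42) in wild type, −0.47 (SE 0.47) in the FLO1 strain, −0.44 (SE 0.42) in the FLO8 strain and −0.47 (SE 0.25, limma adjusted p = 0.306) on average. Leaving out the 4 arrays that stood apart, the average for ZRT1 was −0.04, and its difference in the FLO1 strain turned to 0.30.

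ZRT2, the low-affinity importer, had group means of 10.13 to 10.39. Its wild type arrays read 9.95, 10.19 and 11.02 on the ground and 10.35, 10.32 and 9.73 in flight, so that ground replicate 3 was the highest of all 17. In the FLO1 strain it read 10.14, 10.12 and 10.14 on the ground and 10.02 and 10.63 in flight, and in the FLO8 strain 10.30, 10.27 and 10.19 on the ground and 10.40, 9.65 and 10.33 in flight. Flight and ground overlapped in all 3 strains. The flight differences were −0.25 (SE 0.28), 0.19 (SE 0.31) and −0.13 (SE 0.28), and −0.06 (SE 0.17, limma adjusted p = 0.860) on average, and the sign of the average turned in 6 of its alternatives, among them the fit without the 4 arrays that stood apart (ZRT2 at 0.20).

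The vacuolar transporters did not pass the test either. ZRT3, which exports zinc from the vacuole, read 11.65, 11.60 and 11.97 in wild type on the ground and 11.71, 11.70 and 12.26 in flight. The FLO1 arrays read 11.49, 11.44 and 11.49 on the ground and 11.50 and 11.70 in flight, where flight replicate 1 lay just above the ground arrays. In the FLO8 strain it read 11.67, 11.64 and 11.50 on the ground and 11.60, 12.30 and 11.45 in flight. The high flight arrays were wild type replicate 3 and FLO8 replicate 2, and the average flight difference was 0.15 (SE 0.13, limma adjusted p = 0.513), and 0.06 without the 4 arrays that stood apart.

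ZRC1, which carries zinc into the vacuole, had the narrowest spread of group means of the 10 genes, 0.16 log2. It read 11.61, 11.63 and 11.73 in wild type on the ground and 11.87, 11.92 and 11.65 in flight, 11.81, 11.75 and 11.67 in the FLO1 strain on the ground and 11.53 and 11.86 in flight, and 11.68, 11.69 and 11.64 in the FLO8 strain on the ground and 11.74, 11.35 and 11.89 in flight. Its flight differences were 0.16 (SE 0.15), −0.05 (SE 0.17) and −0.01 (SE 0.15), with an average of 0.03 (SE 0.09, adjusted p = 0.876 by limma), and 0.14 without the 4 arrays that stood apart.

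ZAP1, the regulator, was the member with the lowest p in wild type and in the FLO8 strain, in both with lower values in flight. In wild type it read 11.22, 11.41 and 11.69 on the ground and 11.24, 10.63 and 10.76 in flight. In the FLO1 strain it read 11.24, 11.06 and 11.00 on the ground and 11.40 and 10.87 in flight, and in the FLO8 strain 11.36, 11.06 and 10.73 on the ground and 11.07, 9.71 and 10.28 in flight. In wild type and the FLO8 strain flight replicate 1 lay within the ground range and the other flight arrays below it. The differences were −0.56 (SE 0.29, limma adjusted p = 0.571) in wild type, −0.70 (SE 0.29, adjusted p = 0.744) in the FLO8 strain and 0.03 (SE 0.33, adjusted p = 0.973) in the FLO1 strain. The average was −0.41 (SE 0.18, adjusted p = 0.195), and −0.24 without the 4 arrays that stood apart. Leaving them out turned the FLO8 strain difference of ZAP1 to 0.02, from the single flight array that was left.

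ADH4 read 10.48, 10.53 and 11.98 in wild type on the ground and 10.71, 10.73 and 9.81 in flight. The FLO1 arrays read 10.72, 10.69 and 10.82 on the ground and 10.35 and 10.77 in flight, and in the FLO8 strain 10.86, 11.06 and 10.82 on the ground and 10.94, 10.53 and 10.40 in flight. A single ground array of wild type, replicate 3, was the highest of the 17, and flight replicate 3 of the same strain the lowest. The flight differences were −0.58 (SE 0.34) in wild type, −0.18 (SE 0.38) in the FLO1 strain and −0.29 (SE 0.34) in the FLO8 strain, with an average of −0.35 (SE 0.21, limma adjusted p = 0.343), and −0.07 without the 4 arrays that stood apart. Without wild type ground replicate 3, the wild type difference was −0.09 for ADH4 and −0.15 for ZRT1.

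Wild type ground replicate 3 was the highest of the 17 arrays for 4 of the 10 members, ZRT1, ZRT2, ZAP1 and ADH4, as it was for 6.51% of all genes. All 4 are known Zap1 targets, but so are ZRT3 and ZRC1, which were not highest on this array. ZRT3 had its highest ground reading of wild type there (11.97), and ZRC1 stood 0.02 log2 above its mean of 17 arrays. The 4 IZH genes, of a family known to answer to zinc, had their lowest ground readings of wild type there. IZH1 to IZH4 read 10.27, 9.15, 11.45 and 10.08. Of a list of 20 other genes reported as Zap1 targets, 19 were measured, and 4 of them also had their highest level on this array. More of the 19, 5, had it on FLO8 flight replicate 2, the highest array for 21.8% of all genes. A further 3 had it on FLO1 flight replicate 1, the highest for 15.6% of all genes. The next genes were picked from that list after their values were seen. ZPS1, a cell wall protein made when zinc is short, read 13.19 on this array, against 9.85 and 9.98 on the other ground arrays of wild type and 9.42 to 10.85 on the remaining 14 arrays. VEL1, a gene of unknown function strongly induced by zinc shortage, read 9.61, against 5.92 and 6.33 in its group and 5.77 to 7.38 elsewhere. RTC4, whose product has no settled role, read 9.53, against 8.35 and 8.20 in its group and 7.85 to 8.84 elsewhere. MNT2, a mannosyltransferase gene on the same list, read 9.05 there, with 8.89 and 8.98 on the other arrays of its group.

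This array was not among the 4 that stood apart, but its mean correlation with the other arrays, 0.962, came next, at rank 5. That was the lowest of the ground arrays. Its root mean square distance from its group mean, 0.339 log2, was the largest on the ground, with 0.216 and 0.205 for the others of its group. Its limma array weight, which is lower for noisier arrays, was 0.27, against 2.11 and 1.98 for those others. This array was 1 of a group of 3, so its values have no test. The mean level of the 20 iron uptake genes was also highest on it, at 10.62 against 9.23 to 9.84 on the other 16 arrays, and 11 of the 20 had their highest reading there. Among these, and again picked after their values were seen, FIT2, a cell wall mannoprotein that helps retain iron, read 13.86 against 9.35 and 9.61 in its group, and SIT1, a siderophore transporter, read 13.07 against 9.56 and 9.78. Whether the zinc and iron readings of this array have a shared source was not tested.

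**Figure D3:**
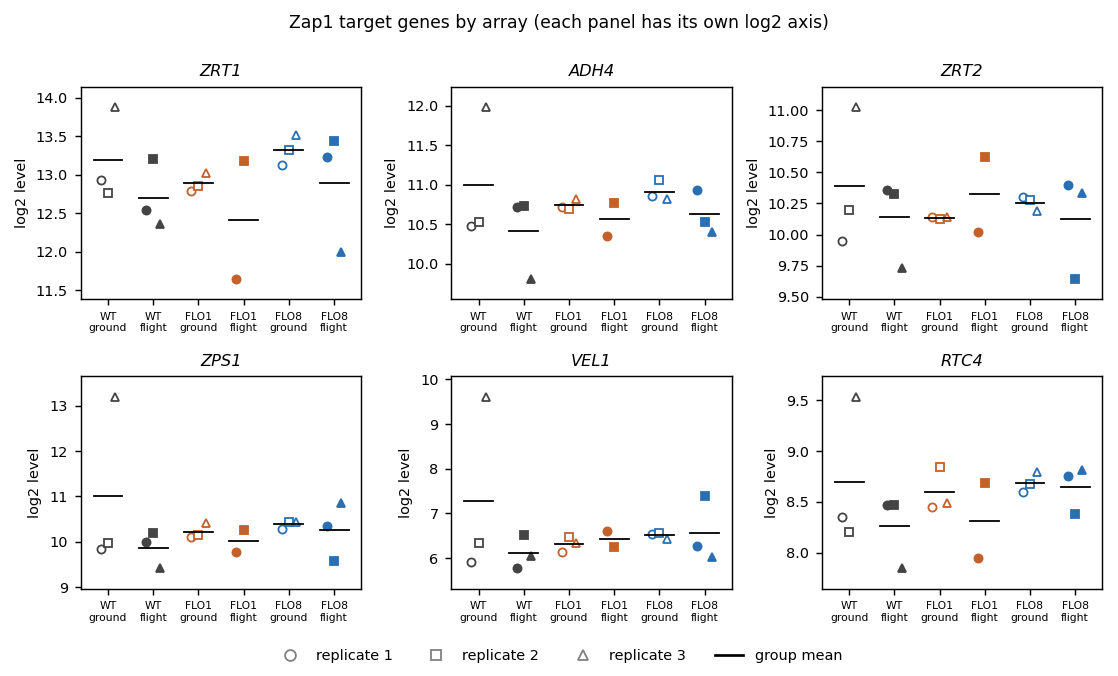
Log2 probe set level (y axis, a separate range in every panel) of 3 of the zinc genes and 3 other Zap1 targets on each array of the 6 groups (x axis); open symbols are ground, filled symbols flight, and bars group means. The 3 other Zap1 targets were picked after their values were seen. In all 6 panels wild type ground replicate 3 is the highest point, at 13.19 for ZPS1 and 9.61 for VEL1.

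ZRT1 and ADH4 lie next to each other in the genome on the R64 assembly, with the noncoding transcript SUT532 between them, which is not on the array. On wild type ground replicate 3, the run of genes around them stood above their mean of 17 arrays by 3.07 log2 for VEL1, 0.20 for MNT2, 1.27 for ADH4, 0.95 for ZRT1 and 0.48 for FZF1, after 0.68 for YPS5 and 0.51 for YGL258W-A at its start, while HXK2, a hexokinase gene at the end of the run, stood at −0.09. MNT2, which lies between VEL1 and ADH4, thus stood less far above its mean than either.

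The other genes of zinc biology were read against the same tests, on lists chosen with earlier results known. In the average flight comparison, which called 4.31% of all genes, 2 of the 19 measured Zap1 targets were called, both higher. These were YJL132W by 0.26 log2 (SE 0.06, adjusted p = 0.0385 by limma) and TSA1, a peroxiredoxin that also protects proteins under zinc shortage, by 0.39 (SE 0.10, adjusted p = 0.0409). That list had 9 of 19 genes above 0 and a median of −0.03, beside 0.03 over all genes. Of the 19, 2 had an unadjusted p under 0.05 by limma, against 21.7% of all genes. MNT2 followed with −0.30 (SE 0.14, adjusted p = 0.250). None of the 6 other zinc transport genes was called, though 5 lay above 0 and their median was 0.29. The 3 with the lowest p were MSC2, part of a zinc importer of the endoplasmic reticulum, at 0.31 (SE 0.10, adjusted p = 0.0937), COT1, a vacuolar transporter related to ZRC1, at 0.29 (SE 0.15, adjusted p = 0.262), and ZRG8 at 0.31 (SE 0.19, adjusted p = 0.359). FET4 and ZRG17 stand on both of these lists. Without the 4 arrays that stood apart, TSA1 read 0.35, YJL132W 0.28, MSC2 0.15 and ZRG8 0.57, and COT1 turned to −0.03. The median of the 6 transport genes was then 0.06.

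Among 9 measured zinc-dependent or related dehydrogenases, 1 was called in the average flight comparison, which called 4.31% of all genes. This was ADH2, which oxidises ethanol, higher by 0.97 log2 (SE 0.23, adjusted p = 0.0325 by limma). ADH7 followed at 0.45 (SE 0.14, adjusted p = 0.0863) and the mitochondrial ADH3 at 0.17 (SE 0.07, adjusted p = 0.185). The list had 6 of 9 genes above 0 and a median of 0.05. In single strains 0 genes of these 3 lists were called by limma, and between 0 and 2 of each list had an unadjusted p under 0.05, as 10%, 13.1% and 6.55% of all genes did in wild type, the FLO1 and the FLO8 strain. In the fit without those 4 arrays ADH2 read 1.07 and ADH7 0.61.

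Of the 14 low-oxygen and lipid genes, which include MGA2, 1, SPT23, was called in the average flight comparison, which called 4.31% of all genes. SPT23, a relative of MGA2 that activates the fatty acid desaturase gene OLE1, was higher by 0.33 log2 (SE 0.08, adjusted p = 0.0384 by limma). DAN1, a cell wall mannoprotein made without oxygen, read 1.37 (SE 0.40, adjusted p = 0.0653) and ANB1, a translation factor gene of low-oxygen cells, −0.48 (SE 0.14, adjusted p = 0.0731). The list had 11 of 14 genes above 0 and a median of 0.21. Its mean level was 12.16 on FLO1 flight replicate 1, the array where IZH1, IZH2 and IZH4 were highest, and 11.22 to 11.70 on the other 16 arrays. Of the 14 oleate response genes none was called, 10 lay above 0 and the median was 0.09. TES1, a peroxisomal thioesterase gene, had the lowest p (0.39, SE 0.11, adjusted p = 0.0549), followed by POX1, which opens fatty acid breakdown (0.52, SE 0.20, adjusted p = 0.143), and IDP3 (−0.64, SE 0.31, adjusted p = 0.247). In the fit without those 4 arrays SPT23 read 0.40, DAN1 0.49 and ANB1 −0.62, and the median of the low-oxygen list was 0.09. There IDP3 read −0.49, TES1 0.18 and POX1 0.06.

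The genes with profiles most like the IZH genes were found by the root mean square difference of log2 levels, each centred on its own mean, over the 17 arrays. Nearest to IZH2 outside the members were FAA4, a long-chain fatty acyl-CoA synthetase gene (0.48 log2), CRF1, a corepressor of ribosomal protein genes (0.50), and FHN1, a membrane protein gene (0.55), against a median of 1.08 over all other genes. IZH4 was nearer to IZH2 than any of these, at 0.24. Nearest to IZH4 were CRF1 (0.37), FAA4 (0.39) and MGA2 (0.51), with a median of 1.02. Nearest to IZH1 were MRPL27, a mitochondrial ribosomal protein gene (0.27), FAA4 (0.28) and SWI1, a chromatin remodelling subunit gene (0.30), where the nearest member was IZH4 at 0.54 and the median 0.79. All arrays share these profiles, so the distances describe these 17 arrays and carry no test.

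Since they were picked for a like profile, their agreement with the IZH genes was built in. Array levels are given for FAA4, CRF1 and MGA2 only, although MRPL27 and SWI1 were among the nearest to IZH1 and FHN1 to IZH2. FAA4 read 13.50 and 11.28 in the FLO1 strain in flight against 10.72, 10.74 and 10.86 on the ground, and 12.15 and 12.82 on wild type flight replicate 3 and FLO8 flight replicate 2. CRF1 read 10.38 and 7.86 in the FLO1 strain in flight against 6.91, 7.36 and 7.20 on the ground, with 9.31 and 8.66 on those same arrays. MGA2 read 12.21 and 10.37 in the FLO1 strain in flight against 10.16, 10.33 and 10.16 on the ground, with 11.82 and 11.14 there. The profiles parted on 2 flight arrays. On FLO8 flight replicate 3, IZH2 stood 1.46 log2 and IZH4 0.93 above their means, FAA4 0.49, MGA2 0.33 and CRF1 0.09, and on FLO1 flight replicate 2 IZH2 stood at 1.00, IZH4 at 0.82, CRF1 at 0.21, FAA4 at −0.04 and MGA2 at −0.10. None of FAA4, CRF1 and MGA2 was called in flight. Their limma adjusted p in the average comparison was 0.192 for FAA4, 0.148 for CRF1 and 0.183 for MGA2. FLO1 flight replicate 1 was the highest array for 15.6% of all genes, and FLO8 flight replicate 2 for 21.8%.

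**Figure D4:**
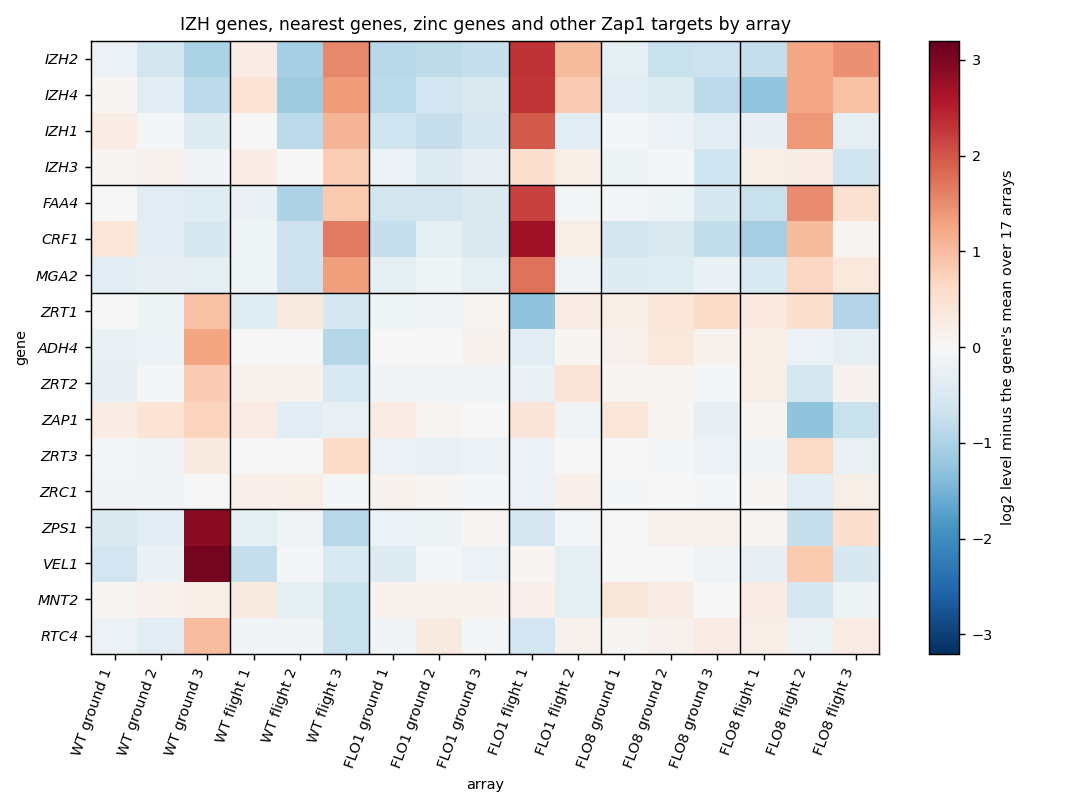
Log2 level minus the gene's mean over 17 arrays (colour, scale at the right), by gene (rows) and array (columns, grouped by strain and condition). Rows are the IZH genes, 3 of the genes of similar profile, the other zinc genes and 4 further Zap1 targets. IZH1, IZH2, IZH4, FAA4, CRF1 and MGA2 are red on wild type flight 3, FLO1 flight 1 and FLO8 flight 2, IZH2 and IZH4 also on FLO1 flight 2 and FLO8 flight 3, and the darkest cells of ZPS1 and VEL1 on wild type ground 3.

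Between strains no member passed the test. On the ground 9 of the 10 members had lower group means in the FLO1 strain than in the wild type, from −0.56 log2 (IZH1) to 0.09 (ZRC1), with a median of −0.27 beside 0.02 over all genes. This count depended on wild type ground replicate 3, the array high for several members. Without it the median was −0.18, and ZRT1, ZRT2 and ADH4 were no longer lower in the FLO1 strain. The limma adjusted p was 1.00 for every member, and the comparison called 0.0367% of all genes. With limma array weights, which give noisy arrays less influence, IZH1 was called at −0.70 (adjusted p = 0.0470). That fit called 501 of the 5449 genes. The FLO8 strain on the ground gave 7 of 10 below 0, from −0.39 (ZAP1) to 0.13 (ZRT1), with 0.0367% of all genes called. The median of the members was −0.13, and −0.10 without wild type ground replicate 3.

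In flight the FLO1 strain exceeded wild type by 1.43 log2 (SE 0.68) for IZH2 and 1.33 (SE 0.72) for IZH4, with limma adjusted p of 0.653 and 0.689, and 0 of 10 members were called where 0.0367% of all genes were. The FLO8 strain in flight differed from wild type by −0.53 (ZAP1, SE 0.29, adjusted p = 0.592) to 0.41 (IZH2, SE 0.61, adjusted p = 0.894), with 0 of 10 members and 0.0367% of all genes called. In all 4 strain comparisons 0 of the 10 members had an unadjusted p under 0.05. Of all genes that was 1.38% and 3.56% for the FLO1 and FLO8 strains on the ground, and 7.76% and 9.98% in flight.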

How the data were processed

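Total RNA was hybridised to 17 Affymetrix Yeast Genome 2.0 arrays. The authors deposited a log2 level per probe set. According to the submitters' processing notes, RMA, affy 1.26.1 and MAS5 were used; the role of MAS5 is not given. The scanner files were not used here. Array medians were 9.84 to 9.94, so the values were not normalized again. Precision is limited by how few arrays a group has.

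Of 10928 probe sets, 7244 carry 1 gene symbol, 1 several and 3683 none, from GEO's platform annotation; 12 symbols were updated by identifier. For the 47 genes with several probe sets the one of highest mean was kept, giving 5449 genes. Background was set at the 95th percentile of the array's 1746 probe sets for S. pombe. No coordinates are printed, since the design's build is not given in the sources used here. No pair of arrays was identical.

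A mean per group was fitted with limma 3.58.1 in R 4.3.3 (11 residual degrees of freedom, eBayes, two-sided), with Benjamini-Hochberg adjustment over the 5449 genes within each of 10 comparisons. Errors of levels are SD and of differences SE; a call is an adjusted p under 0.05. The fit was tested on simulated data. Alternatives were median centring, quantile normalization, genes above background, the arrays compared alone, array weights, the replicate number as a block, and each array left out; 2 more, the fit without the 4 arrays that stood apart and the RNA quality covariate, were chosen after seeing the data. Same-numbered arrays deviated together (r over 0.1) in 17 of 40 pairs, with r from −0.51 to 0.64. Deviations from a group mean cancel within small groups, so this count cannot tell whether the numbers pair samples.

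The members, lists and naming rule were chosen with earlier results of these data known. The rule named all 10 members, up to 3 genes of lowest average flight p per list with any called, the 3 nearest genes of the 3 members with the widest group means, and the FLO genes; departures are stated where they occur.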

Additional observations from a re-analysis of the deposited data

How the results depend on the processing

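The counts of genes called depended strongly on the fit, and the cause was not tested. With array weights they were 598 (wild type flight, 8 in the fit to all arrays), 0 (FLO1 flight, 2), 748 (FLO8 flight, 0), 776 (average flight, 235), 501 and 645 (FLO1 and FLO8 strain against wild type on the ground, 2 each) and 13 (FLO8 strain against wild type in flight, 2). Without the 4 arrays that stood apart they were 464, 5 and 1021 for wild type, FLO1 and average flight, 20 for the FLO8 strain on the ground and 0 in flight. The RNA quality covariate gave 1, 0 and 0 for wild type, FLO1 and average flight and 1 for the FLO8 strain in flight. With the arrays compared alone the counts were 0 for wild type and FLO1 flight, 9 for the FLO8 strain on the ground, and 1 and 0 for the FLO1 and FLO8 strains in flight. Median centring gave 13 for wild type flight and quantile normalization 1 for FLO1 flight. The average flight split of 126 higher and 109 lower became 63 and 131 with median centring and 86 and 102 with quantile normalization.

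Of the members, 1 was called in average flight, and 0 with array weights, with the covariate and without the 4 arrays. With array weights 1, IZH1, was called between the FLO1 strain and wild type on the ground, among 501 genes called. The replicate block gave 3, 0 and 127 genes for wild type, FLO1 and average flight and 0 members, IZH2 standing at 1.56 (adjusted p = 0.0524). Whether the numbers pair the arrays could not be told.

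With each array left out in turn, the counts were 1 to 14 in wild type flight, 0 to 510 in FLO1 flight, 0 to 1 in FLO8 flight, 56 to 512 in average flight, 2 to 396 and 1 to 32 for the FLO1 and FLO8 strains in flight, and 0 to 163 for the FLO1 interaction. Members called were 0 to 3 in average flight and 0 to 2 in FLO1 flight. The 510, 396 and 512 came without FLO1 flight replicate 2. Of 650 member values under alternatives for the 40 flight differences, 55 turned sign, in 22 differences, and 6 passed the threshold where the fit to all arrays did not. The average flight fit already holds all arrays, so the fit to the arrays compared alone was not run for it.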

Other observations

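Iron uptake genes are switched on when cells lack iron. In the average flight comparison 4 of the 20 measured lay above 0, the median was −0.25 log2 beside 0.03 over all genes, and by limma 0 were called, with 3 at an unadjusted p under 0.05, against 21.7% of all genes. The 4 arrays that stood apart had the lowest mean levels of this list, 9.23 to 9.50, and wild type ground replicate 3 the highest, 10.62. The highest of those 4, wild type flight replicate 3, was level with wild type ground replicate 1, both at 9.50. Without those 4 arrays 12 of the 20 lay above 0 and the median was 0.09. Without wild type ground replicate 3 alone 9 lay above 0 and the median was −0.03. In the FLO1 strain 11 of 20 lay above 0. HMX1, the haem oxygenase gene, read −1.16 (SE 0.33, adjusted p = 0.0594), MRS4, a mitochondrial iron carrier gene, −0.53 (SE 0.18, adjusted p = 0.118), and SMF3, a vacuolar metal exporter gene, 0.44 (SE 0.19, adjusted p = 0.194). Without the 4 arrays these read −0.40, −0.18 and 0.10 for HMX1, MRS4 and SMF3.

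FIT3, another iron-retaining mannoprotein of the cell wall, chosen after its values were seen, read 14.15 on wild type ground replicate 3 against 11.09 and 11.13 on the other arrays of its group. FLO11 read 12.75, 12.53 and 11.24 in the FLO8 strain on the ground and 12.09, 12.16 and 13.02 in flight.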
